A study of Mus musculus with 15 samples.

Results

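The guanylate-binding proteins (GBPs) and the immunity-related GTPases (IRGs) are families of interferon-inducible GTPases, and 8 of their genes were followed here across sorted mouse dendritic cells (DCs). They were chosen by gene symbol, as the GBP genes Gbp2, Gbp3, Gbp6 and Gbp7 and the IRG genes Igtp, Irgm1, Irgm2 and Iigp1. All 8 were found among the 18194 genes with a probe set of their own on the Affymetrix whole-genome mouse array used, and all 8 were among the 13629 genes bright enough to be tested. The 15 arrays fell into 5 groups of 3. Immature cells (CD11c+ CD317- CD172a- CD117+ CCR7-) and mature cells (CD11c+ CD317- CD172a- CD117- CCR7+) were sorted from the thymus of untreated mice and from the spleen of untreated mice, and mature cells of the same phenotype came from the spleen of mice that had received 10 µg of polyI:C by intraperitoneal injection 18 h before. PolyI:C is a synthetic double-stranded RNA that induces type I interferons. The cells are labelled XCR1+ DCs, although XCR1 itself is not among the listed sort markers. No immature cells from polyI:C-treated mice were measured, so the treated cells were compared with untreated ones only. The labels do not give the strain or age of the mice, or say whether replicates came from separate mice or pools, so p-values measure the spread between these arrays, which may be technical.

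GBPs and IRGs are switched on by interferons and defend cells against microbes that live in vacuoles or in the cytosol. GBPs assemble on pathogen vacuoles and on cytosolic bacteria and promote the activation of inflammatory caspases. Among the IRGs, Iigp1 (Irga6) is an effector that loads onto pathogen vacuoles, while Igtp (Irgm3), Irgm1 and Irgm2 sit on the membranes of the cell itself and hold effectors in their inactive state. Type I interferons act through STAT and IRF factors at the interferon-stimulated response element (ISRE). Interferon gamma acts through STAT dimers at the gamma-activated site (GAS), and IRF1 can also bind ISRE-type sequences.

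The promoters of the members are shown because the elements through which interferons act on such genes lie there. RefSeq promoter windows (GRCm38.p6; 250 bases before the annotated start to 50 after it) were at hand for 6 of the 8 genes, that is for Gbp2, Gbp3, Gbp7, Igtp, Irgm1 and Irgm2. Both strands were searched for an ISRE core, written GAAANNGAAA, and for a GAS core, written TTCNNNGAA. Each line below gives the 110 bases that end just before the start, 5′ to 3′ on the strand of the gene, with the letters of either core in capitals.
Gbp2, chr3:142620553-142620662, plus strand: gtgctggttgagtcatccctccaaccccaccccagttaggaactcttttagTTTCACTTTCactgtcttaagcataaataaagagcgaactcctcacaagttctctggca
Gbp3, chr3:142559934-142560043, plus strand: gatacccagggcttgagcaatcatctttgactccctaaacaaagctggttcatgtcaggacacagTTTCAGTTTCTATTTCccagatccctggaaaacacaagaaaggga
Gbp7, chr3:142530226-142530335, plus strand: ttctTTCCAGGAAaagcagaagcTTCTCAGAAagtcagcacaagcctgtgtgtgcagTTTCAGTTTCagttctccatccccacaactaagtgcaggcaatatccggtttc
Igtp, chr11:58199446-58199555, plus strand: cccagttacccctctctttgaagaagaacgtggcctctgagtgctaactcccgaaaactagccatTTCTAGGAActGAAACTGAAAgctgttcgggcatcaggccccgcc
Irgm2, chr11:58214867-58214976, plus strand: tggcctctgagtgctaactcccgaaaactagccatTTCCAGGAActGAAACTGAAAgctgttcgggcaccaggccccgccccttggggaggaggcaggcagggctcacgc
Irgm1, chr11:48871421-48871530, minus strand: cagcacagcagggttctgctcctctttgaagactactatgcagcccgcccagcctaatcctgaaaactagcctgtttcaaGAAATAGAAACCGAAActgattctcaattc

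An ISRE core was present in 6 of 6 genes with a window, against 3.44% of all 32851 promoter windows of the same length. In Gbp2, Gbp3 and Gbp7 the matches read as the reverse strand of the core, and in Igtp, Irgm1 and Irgm2 as its forward strand. Every match lay close to the start. The one farthest away, in Irgm2, began 64 bases before it, and the nearest, in Irgm1, began 24 bases before it. Gbp3 and Irgm1 each held 2 overlapping matches, and a further annotated start of Gbp3 had none in its window. A GAS core was present in 3 of the 6 genes, Gbp7, Igtp and Irgm2, against 8.30% of all windows, and 0.454% of all windows held both cores. The windows of Igtp and Irgm2, which are neighbours in the RefSeq gene order, resembled each other more than those of any other pair. With one shifted by 30 bases, 184 of 270 bases were identical (68.1%), against 27.7% to 34.9% for the other pairs of members. Gbp7, Gbp3 and Gbp2 likewise lie in 1 cluster, in which Gbp3 is next to Gbp7 and both Gbp3 and Gbp2 are next to Gbp2b. These matches describe the letters of each window and do not show binding.

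**Figure D1:**
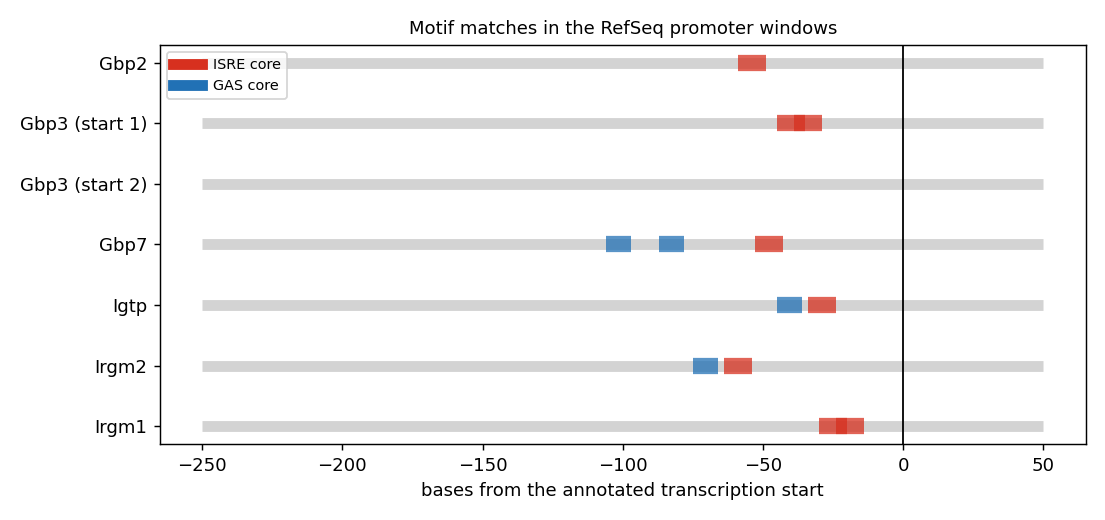
Positions of ISRE and GAS core matches in the RefSeq promoter windows of 6 members, in bases from the annotated start (x axis); grey bars are the windows searched and Gbp3 has 2 annotated starts. All ISRE matches fall within 64 bases before the start, and Gbp7, Igtp and Irgm2 also hold GAS matches.

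All values below are log2 expression values, so a difference of 1 is a doubling, and only differences within a gene are compared because probe sets differ in brightness for the same amount of RNA. Array medians lay between 4.855 and 4.996. The 6 measured DC markers of the XCR1+ list were above the filter value of 4.39 in every group, and their mean per array was 10.47 to 10.92 in the immature groups and 8.89 to 10.29 in the mature groups. Xcr1 itself averaged 11.40 and 5.25 in immature and mature thymic cells, and 11.58, 8.03 and 7.54 in immature, untreated mature and polyI:C-treated mature spleen cells. The 3 mature DC markers averaged 12.30 to 13.57 in the mature groups. In the immature groups they averaged 10.42 to 11.33 in thymus and 7.89 to 9.99 in spleen, so these groups did not overlap. The untreated spleen CCR7+ arrays resembled each other least, with a mean correlation with the rest of their group of 0.9638 to 0.9706, against 0.9800 to 0.9901 in the other groups. Markers of other cells differed between groups. The per-array mean of 4 T cell markers was 5.39 to 6.37 in thymus CCR7- cells, 7.24 to 8.25 in thymus CCR7+ cells, and 4.07 to 5.38 in the spleen groups. Rag1, a recombinase gene of developing lymphocytes, averaged 9.12 in thymus CCR7+ cells, 6.27 in thymus CCR7- cells, and 2.63 to 2.83, below the filter value, in the spleen groups. The mean of 3 B cell markers was highest in untreated spleen CCR7+ cells (6.81 to 7.84), and the mean of 4 thymic epithelial markers was 6.36 to 6.82 in thymus and 4.98 to 5.69 in spleen. In such bulk samples, fewer cells of a type and less RNA per cell cannot be told apart.

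Among the GBPs, Gbp2 spanned the widest range. It read 6.50, 7.22 and 6.81 in the 3 thymus CCR7- arrays and 11.89, 11.97 and 11.99 in the thymus CCR7+ arrays. In spleen it read 7.56, 7.52 and 7.96 in CCR7- cells, 11.59, 11.18 and 11.45 in untreated CCR7+ cells, and 12.44, 12.32 and 12.58 after polyI:C. No 2 of the 5 groups overlapped, and the order from low to high was thymus CCR7-, spleen CCR7-, spleen CCR7+, thymus CCR7+, spleen CCR7+ with polyI:C.

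Gbp3, which lies in the same gene cluster, read 8.41, 8.42 and 8.54 in thymus CCR7- cells and 11.13, 10.90 and 11.01 in thymus CCR7+ cells. In spleen it read 8.02, 8.21 and 8.60 in CCR7- cells, 10.59, 10.60 and 10.14 in untreated CCR7+ cells, and 11.55, 12.27 and 11.95 after polyI:C. The immature groups of the 2 organs overlapped, and every mature array was above every immature array. Gbp6 read 5.35, 5.52 and 4.74 in thymus CCR7- cells, 6.77, 7.05 and 6.60 in thymus CCR7+ cells, 4.24, 5.14 and 4.75 in spleen CCR7- cells, 6.22, 6.59 and 6.30 in spleen CCR7+ cells, and 7.63, 8.01 and 7.76 after polyI:C. It kept the order of Gbp3 at a dimmer signal, with 1 spleen CCR7- array below the filter value.

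Gbp7 was the most variable GBP within the mature groups, though not within the immature ones. It read 5.84, 6.13 and 5.69 in thymus CCR7- cells, 6.91, 7.44 and 6.04 in thymus CCR7+ cells, 5.36, 5.74 and 5.69 in spleen CCR7- cells, 5.70, 7.16 and 5.23 in untreated spleen CCR7+ cells, and 7.88, 9.53 and 8.49 after polyI:C. Immature and untreated mature arrays overlapped in both organs, and only the polyI:C arrays stood above all others. The array numbered 2 was the highest of its group in all 5 groups.

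The IRGs had another order. Igtp, a regulator on the membranes of the cell itself, read 9.10, 9.21 and 8.81 in thymus CCR7- cells and 8.62, 8.96 and 8.77 in thymus CCR7+ cells. It read 8.70, 8.60 and 8.56 in spleen CCR7- cells, 7.96, 7.83 and 7.53 in untreated spleen CCR7+ cells, and 10.85, 11.61 and 11.65 after polyI:C. The thymic groups overlapped, the untreated mature spleen arrays were below all others, and the polyI:C arrays were above all others.

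Irgm2, the neighbour of Igtp, read 9.36, 9.49 and 8.72 in thymus CCR7- cells, 9.21, 9.33 and 8.75 in thymus CCR7+ cells, 9.08, 8.86 and 8.51 in spleen CCR7- cells, 7.52, 8.21 and 7.996 in untreated spleen CCR7+ cells, and 11.16, 11.90 and 11.43 after polyI:C. As for Igtp, the lowest group was the untreated mature spleen and the highest the polyI:C group, with neither overlapping another. Irgm1, a regulator also linked to autophagy, read 9.60, 8.82 and 9.01 in thymus CCR7- cells, 7.46, 8.04 and 7.59 in thymus CCR7+ cells, 8.58, 8.04 and 8.42 in spleen CCR7- cells, 6.31, 7.25 and 6.32 in untreated spleen CCR7+ cells, and 9.61, 10.81 and 10.35 after polyI:C. Its untreated mature arrays were below the immature arrays of the same organ, and its lowest polyI:C array was only just above its highest thymus CCR7- array.

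Iigp1, the effector IRG, read 6.57, 6.57 and 6.27 in thymus CCR7- cells, 5.42, 5.79 and 5.16 in thymus CCR7+ cells, 7.29, 6.69 and 6.88 in spleen CCR7- cells, 4.84, 5.13 and 5.08 in untreated spleen CCR7+ cells, and 8.04, 10.12 and 9.76 after polyI:C. The untreated mature cells of each organ were below its immature cells. The polyI:C arrays were above all others with a spread of 1.11 (SD, n = 3), because replicate 1 was lower than the other two.

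**Figure D2:**
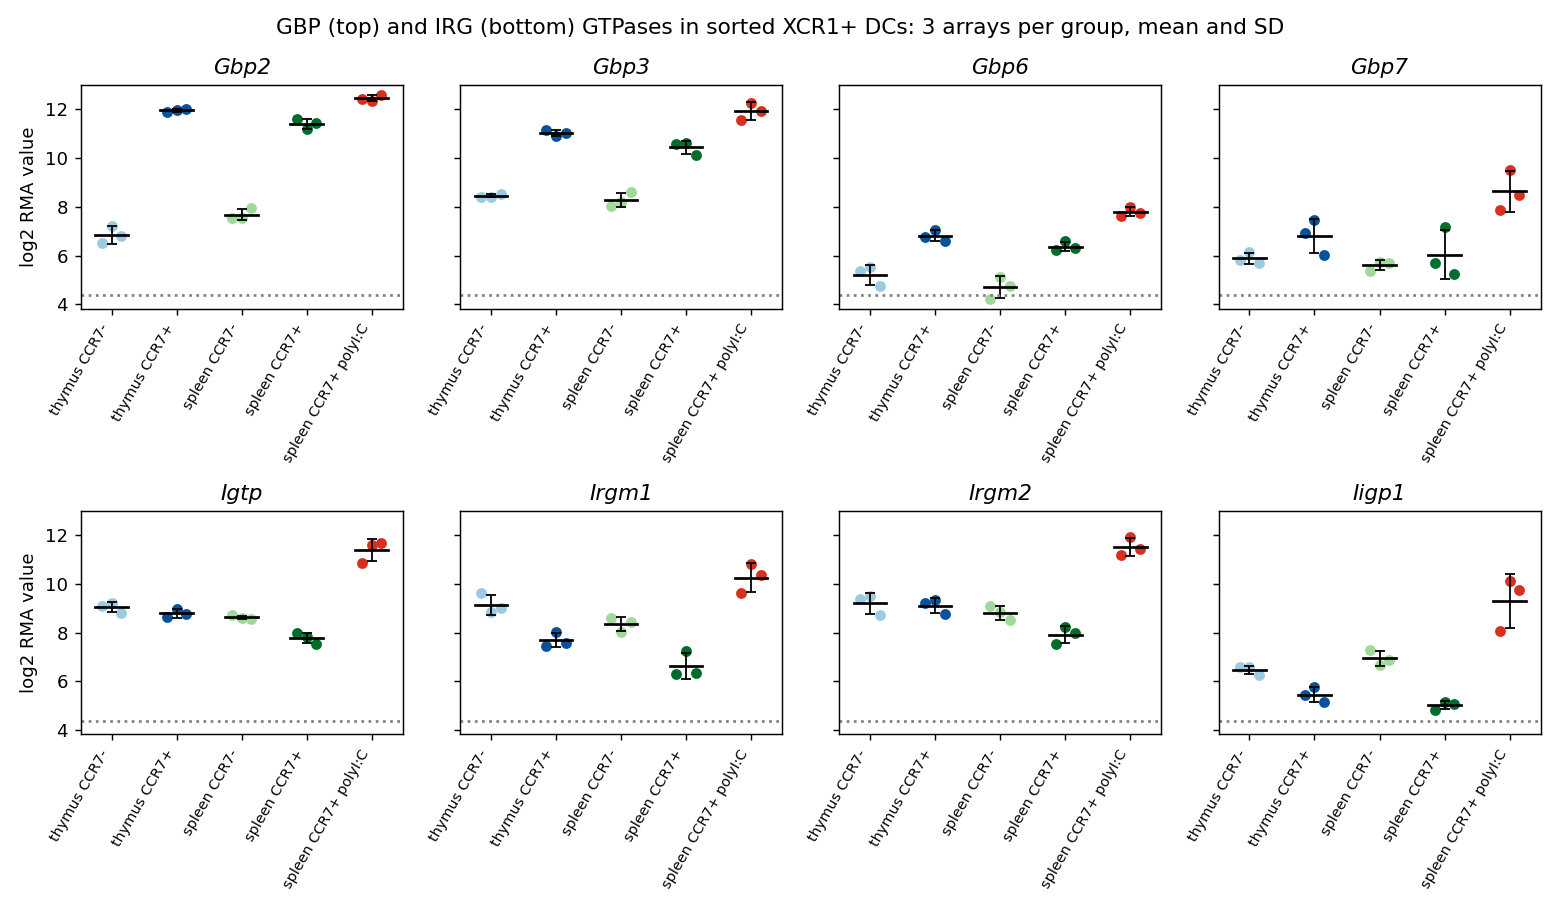
Log2 expression values (y axis) of the 4 GBP genes (top) and 4 IRG genes (bottom) in each of the 5 groups; points are the 3 arrays of a group, lines and bars the mean and SD, and the dotted line the filter value of 4.39. The GBPs Gbp2, Gbp3 and Gbp6 are higher in every mature group than in the immature groups, while Irgm1 and Iigp1 are lower in untreated mature cells and all 8 genes are highest after polyI:C.

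Maturation in the thymus was addressed by comparing thymus CCR7+ with thymus CCR7- cells. Gbp2, Gbp3 and Gbp6 rose and Irgm1 fell, while the other 4 members did not pass the test. Of the 8 members, 3 were called higher, where 16.8% of all genes tested were, and 1 lower, where 20.4% were. Calls were made in limma at an adjusted p under 0.05 (Benjamini-Hochberg over all genes tested). The median log2 change was 0.41 over the members and -0.06 over all genes tested. Gbp2 rose by 5.11 ± 0.18 (SE, n = 3 against 3), or 34.4-fold, with an adjusted p of 7.82e-10. Gbp3 rose by 2.56 ± 0.20, or 5.88-fold (adjusted p = 2e-07), and Gbp6 by 1.60 ± 0.24, or 3.03-fold (adjusted p = 9.79e-05). Irgm1 fell by 1.45 ± 0.32, which is 2.73-fold (adjusted p = 0.00242).

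The remaining changes in the thymus were not resolved. Gbp7 differed by 0.91, with a 95% confidence interval of -0.11 to 1.94 and an adjusted p of 0.163. Iigp1 differed by -1.02 (interval -1.85 to -0.18), and its adjusted p of 0.0538 was just above the threshold although the 2 groups did not overlap. Igtp differed by -0.26 (interval -0.69 to 0.17) and Irgm2 by -0.09 (interval -0.65 to 0.47), and their groups overlapped. Iigp1 passed the threshold when polyI:C replicate 1 or 2 was left out, arrays that enter the comparison only through the shared spread, with adjusted p of 0.00117 and 0.028. The T cell marker mean was 7.24 to 8.25 in the CCR7+ arrays and 5.39 to 6.37 in the CCR7- arrays of the thymus, and its part in these values was not tested.

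Maturation in the untreated spleen was addressed by the same comparison of CCR7+ with CCR7- cells. The 3 GBPs that rose in the thymus rose here as well, and all 4 IRGs fell. Of the 8 members, 3 were called higher, against 12.3% of all genes tested, and 4 lower, against 24.1%. The median change was -0.21 over the members and -0.03 over all genes tested, since the 2 families moved apart. The median was 1.91 over the 4 GBPs and -1.31 over the 4 IRGs.

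Gbp2 rose by 3.73 ± 0.18, or 13.2-fold (adjusted p = 5.33e-09). Gbp3 rose by 2.17 ± 0.20, or 4.49-fold (adjusted p = 1.8e-06), and Gbp6 by 1.66 ± 0.24, or 3.16-fold (adjusted p = 0.000115). Gbp7 differed by 0.43 with an interval of -0.59 to 1.46, and its groups overlapped. Among the IRGs, the effector Iigp1 fell most, by 1.94 ± 0.39 or 3.83-fold (adjusted p = 0.00133). Irgm1 fell by 1.72 ± 0.32, which is 3.29-fold (adjusted p = 0.00082). Igtp fell by 0.85 ± 0.20 (adjusted p = 0.00438) and Irgm2 by 0.91 ± 0.26 (adjusted p = 0.0138).

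The calls for Irgm2 and Gbp6 each depended on a setting. Irgm2 lost its call without spleen CCR7- replicate 1 (-0.77, adjusted p = 0.0646) or without spleen CCR7+ replicate 1 (-0.71, adjusted p = 0.0647). A further probe set of Gbp6 gave 0.67 here (adjusted p = 0.117), against 1.98 in the thymus. B cell markers were higher in the untreated spleen CCR7+ arrays (6.81 to 7.84) than in the CCR7- arrays (5.93 to 6.11), and the mean of the T cell markers was 4.62 to 5.05 against 4.07 to 4.32, with Cd8b1 higher by 1.46 (adjusted p = 0.00142). Cd3g and Rag1 averaged 5.11 and 2.83 against 4.22 and 2.63, and Cd3e 4.87 against 4.96. The part of these B and T cell markers in the values of the members was not tested.

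**Figure D3:**
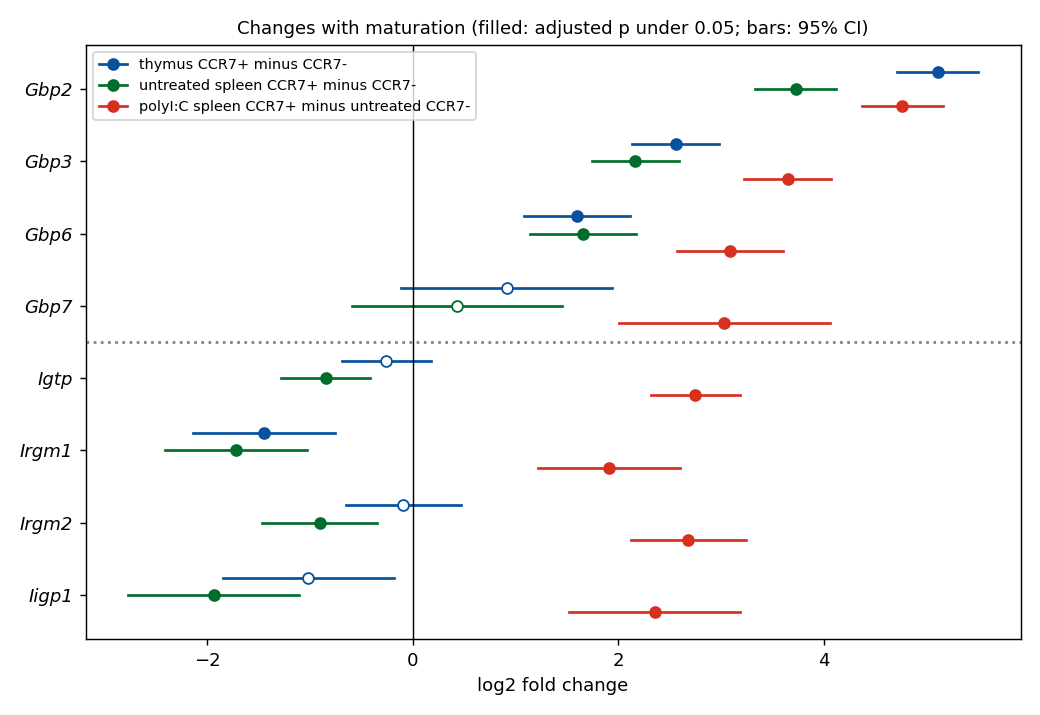
Log2 fold change (x axis) of each member between mature and immature cells in the thymus, in the untreated spleen, and between polyI:C-treated mature and untreated immature spleen cells; points are limma estimates from 3 arrays a group, bars are 95% confidence intervals, and filled points have an adjusted p under 0.05. Gbp2, Gbp3 and Gbp6 lie right of 0 in all 3 comparisons, whereas the 4 IRGs lie left of 0 without polyI:C and right of 0 with it.

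With polyI:C, the mature cells held more of every member than either untreated spleen population. Compared with untreated CCR7- cells, 8 of 8 members were called higher, against 18.4% of all genes tested, and 0 lower, against 28.0% (0 in limma also at an unadjusted p under 0.05). The median was 2.89 over the members and 0.02 over all genes tested. Gbp2 rose by 4.76 ± 0.18 (27.2-fold, adjusted p = 1.56e-10), Gbp3 by 3.65 ± 0.20 (12.5-fold) and Gbp6 by 3.09 ± 0.24 (8.51-fold). Gbp7 rose by 3.03 ± 0.48 (8.18-fold, adjusted p = 0.000108). The IRGs, which fell with splenic maturation in untreated mice, rose here. Igtp was 2.75 ± 0.20 higher, Irgm2 2.68 ± 0.26, Iigp1 2.35 ± 0.39 and Irgm1 1.91 ± 0.32, with adjusted p between 8.53e-08 and 0.000201. The untreated spleen CCR7- group is shared with the comparison of splenic maturation.

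Set against untreated CCR7+ spleen cells, polyI:C-treated CCR7+ cells had a larger estimated difference for each of the 4 IRGs than for any of the 4 GBPs, an order that was not tested between genes. Of the members, 8 of 8 were called higher, against 8.58% of all genes tested, and 0 lower in limma, also at an unadjusted p under 0.05, against 9.66%, and the arrays of the 2 groups did not overlap for any member, as in that direction for 13.5% of all genes tested. The median was 3.61 over the IRGs and 1.46 over the GBPs, and 0.01 over all genes tested. Iigp1 was 4.29 ± 0.39 higher, or 19.6-fold (adjusted p = 3.88e-06). Irgm1 was 3.63 ± 0.32 higher (12.4-fold, adjusted p = 3.22e-06).

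The neighbours Igtp and Irgm2 were 3.60 ± 0.20 (12.1-fold) and 3.59 ± 0.26 higher, with adjusted p of 3.14e-08 and 4.18e-07. The GBPs Gbp7, Gbp3, Gbp6 and Gbp2 were higher by 2.60 ± 0.48, 1.48 ± 0.20, 1.43 ± 0.24 and 1.04 ± 0.18. The difference of Gbp2 was 2.06-fold (adjusted p = 0.00122). Markers of other cells also moved in this comparison. Of the T cell list, Cd8b1 was 2.07 higher (adjusted p = 0.000243), with a list mean of 5.24 to 5.38 against 4.62 to 5.05. The granulocyte marker S100a8 was 1.24 higher and the macrophage marker Mertk 0.94 higher, while the plasmacytoid DC marker Ly6d was lower by -2.21 and the B cell marker Cd79a by -0.97. These lists did not all move as a whole. Of the T cell list, Cd3e averaged 5.09 against 4.87, Cd3g 5.06 against 5.11 and Rag1 2.71 against 2.83. Of the macrophage list, Adgre1 and Csf1r differed by -1.08 and -0.71, and C1qa and Sirpa by 0.19 and 0.27. Its mean was 5.85 to 7.06 against 6.13 to 6.80. The granulocyte marker Elane differed by 0.065. The plasmacytoid DC markers Siglech and Klk1 averaged 6.08 and 6.15 against 6.155 and 5.99. The part of these markers of other cells in the differences of the members was not tested.

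Thymus and spleen were next compared at the same stage. In immature cells, 0 members were called higher in the thymus in limma (1 at an unadjusted p under 0.05), against 4.92% of all genes tested, and 1 was lower, against 3.24%. That gene was Gbp2, lower by 0.84 ± 0.18 in the thymus (adjusted p = 0.00972). Its call ended without thymus CCR7- replicate 1 (-0.67, adjusted p = 0.0516) or spleen CCR7- replicate 3 (-0.70, adjusted p = 0.057). Irgm1 and Igtp were higher in each thymus array than in each spleen array, by 0.80 and 0.42, and Iigp1 was lower in each, by -0.49, but none passed the test (adjusted p of 0.186, 0.29 and 0.643). The differences of Gbp3, Gbp6, Gbp7 and Irgm2 lay between 0.18 and 0.49, with overlapping groups. Of the mature DC markers, Fscn1 averaged 12.32 in immature thymus and 10.12 in immature spleen, Ccl22 11.31 and 8.57, and Ccr7 8.84 and 8.42. The part of these markers in the differences of the members was not tested. Same-numbered thymus and spleen arrays of a stage deviated together, and with the replicate block within stage Irgm1 was called as well (adjusted p = 0.00503), so that 1 member was higher, against 9.24% of all genes tested in that fit.

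In untreated mature cells, all 8 members had higher means in the thymus, and the arrays of 7 did not overlap, as was the case in that direction for 16.5% of all genes tested. Of these, 3 IRGs were called higher, against 8.71% of all genes tested, and 0 members lower in limma, also at an unadjusted p under 0.05, against 3.47%. Igtp was 1.01 ± 0.20 higher in the thymus (2.01-fold, adjusted p = 0.00444) and Irgm2 1.19 ± 0.26 (2.28-fold, adjusted p = 0.00833). Irgm1 was 1.07 ± 0.32 higher, with an adjusted p of 0.0448 close to the threshold. The differences of Gbp2 (0.55 ± 0.18, adjusted p = 0.0697) and Gbp3 (0.57 ± 0.20, adjusted p = 0.0764) missed it narrowly. Gbp6 differed by 0.44, Iigp1 by 0.44 and Gbp7 by 0.77, with adjusted p between 0.272 and 0.515. Gbp2 passed the threshold without thymus CCR7- replicate 1 or 2, arrays of neither group (adjusted p of 0.0495 and 0.0441).

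The call for Irgm1 ended without any 1 of 11 of the 15 arrays. Without a thymus CCR7+ array the difference was 0.90 to 1.19 (adjusted p of 0.0619, 0.184 and 0.0855 without replicates 1, 2 and 3), and without spleen CCR7+ replicate 1 or 3 it was 0.91 and 0.92 (adjusted p of 0.137 and 0.129). The other 6 arrays were thymus CCR7- replicates 2 and 3, the 3 spleen CCR7- replicates and polyI:C replicate 3, and without them it remained 1.07 with adjusted p of 0.0501 to 0.0598. With the replicate block within stage, Irgm1 was called (adjusted p = 0.00105), as were Gbp3 (adjusted p = 0.0202) and Gbp7 (adjusted p = 0.0159), so that 5 members were higher, against 18.6% of all genes tested in that fit. The further probe set of Gbp6 gave 1.90 and would be called (adjusted p = 0.00133). T cell markers were higher in the mature thymus arrays (7.24 to 8.25) than in the spleen CCR7+ arrays (4.62 to 5.05). The mean of the thymic epithelial markers was higher as well (6.36 to 6.55 against 5.08 to 5.69). Of these, Epcam, Krt5 and Krt8 had higher means in the thymus, but Foxn1 averaged 4.66 against 4.84. The part of these T cell and epithelial markers in the differences was not tested.

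Against polyI:C-treated spleen CCR7+ cells, mature thymic cells held less of the members. Of the 8, 7 were called lower, against 7.40% of all genes tested, and 0 higher in limma, also at an unadjusted p under 0.05, against 16.7%. No groups of a member overlapped, as in that direction for 18.0% of all genes tested. The largest difference was -3.86 ± 0.39 for Iigp1 (14.5-fold, adjusted p = 9.77e-06). Igtp, Irgm1 and Irgm2 differed by -2.59, -2.56 and -2.40. Gbp7 differed by -1.83 ± 0.48, Gbp6 by -0.99 ± 0.24 and Gbp3 by -0.91 ± 0.20, with adjusted p between 0.00405 and 0.0122. Gbp2 differed by -0.49 ± 0.18 and was not called (adjusted p = 0.0653). Gbp7 lost its call without thymus CCR7+ replicate 3 (-1.45, adjusted p = 0.0584) or polyI:C replicate 2 (-1.38, adjusted p = 0.0517). Gbp2 gained one without thymus CCR7- replicate 1 or 2, arrays of neither group (adjusted p of 0.0462 and 0.0411). The T cell marker mean was 7.24 to 8.25 in the thymus arrays and 5.24 to 5.38 in the polyI:C arrays, although Cd8b1 averaged 7.23 against 8.37. The thymic epithelial marker mean was 6.36 to 6.55 against 4.98 to 5.215, although Foxn1 averaged 4.66 against 4.91. The part of these markers in the differences was not tested.

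**Figure D4:**
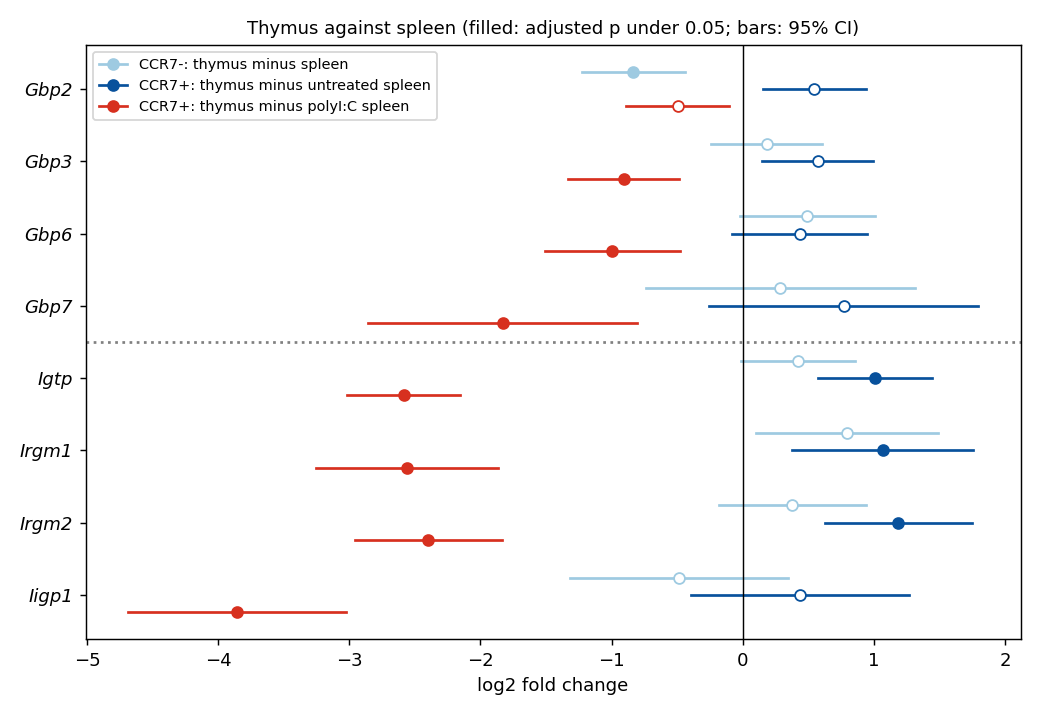
Log2 fold change (x axis) of each member between thymus and spleen in CCR7- cells, in untreated CCR7+ cells, and between thymus CCR7+ and polyI:C-treated spleen CCR7+ cells; points are limma estimates from 3 arrays a group, bars are unadjusted 95% confidence intervals, and filled points have an adjusted p under 0.05. All 8 estimates lie right of 0 for mature thymus against untreated mature spleen, where 3 are called and the Gbp7 arrays overlap. All 8 lie left of 0 against polyI:C-treated spleen, where 7 are called.

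Whether maturation changed the members differently in the 2 organs was tested as the thymic change minus the splenic change. Gbp2 was the 1 member called, against 1.79% of all genes tested called higher, and 0 were lower in limma, also at an unadjusted p under 0.05, against 1.39%. Its rise was larger in the thymus by 1.38 ± 0.26 (interval 0.83 to 1.94, adjusted p = 0.00834), with a lower start and a higher end there. For the other 7 members the difference did not pass the test. It ranged from -0.06 for Gbp6 to 0.92 for Iigp1, with adjusted p between 0.308 and 0.959. The further probe set of Gbp6 gave 1.32, so the probe sets of this gene disagreed here. The IRG calls that appeared in the spleen and not in the thymus, for Igtp, Irgm2 and Iigp1, were therefore not shown to differ between the organs. With the replicate block within stage, Iigp1 was called in addition to Gbp2 (adjusted p = 0.038). In that fit 2 members were higher, against 6.60% of all genes tested. The mean of the mature DC markers was 10.42 to 11.33 in the thymus CCR7- arrays and 7.89 to 9.99 in the spleen CCR7- arrays. Its part in the differences between the organs was not tested.

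The members of a family varied together across the 15 arrays. As a description over 15 arrays that fall into 5 groups, Pearson's r was 0.88 to 0.975 over the 6 pairs of IRGs, highest for Igtp and Irgm2, and 0.629 to 0.962 over the 6 pairs of GBPs. Over the 16 pairs of 1 GBP and 1 IRG it ran from -0.115, for Gbp2 and Irgm1, to 0.839, with a median of 0.424. Gbp7 followed the mean of the other members most closely (r = 0.938) and Gbp2 least (r = 0.51). With each gene centred on its own mean, the mean over the IRGs was -0.34 to -0.80 in thymus CCR7+ arrays and -1.26 to -1.71 in untreated spleen CCR7+ arrays, while the mean over the GBPs was 0.70 to 1.13 and 0.07 to 0.67. In the polyI:C arrays these means were 1.55 to 2.74 for the IRGs and 1.66 to 2.32 for the GBPs, with replicate 1 the lowest of the 3 in both.

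**Figure D5:**
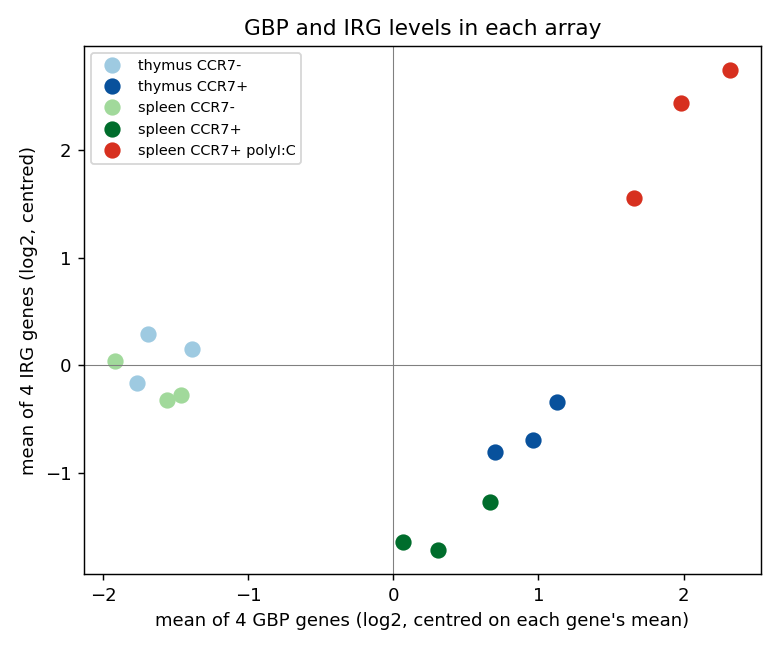
Mean of the 4 GBP genes (x axis) against mean of the 4 IRG genes (y axis) in each of the 15 arrays, in log2 units after each gene was centred on its own mean; each point is 1 array, coloured by group. Untreated mature arrays lie right of and below the immature arrays, and the 3 polyI:C arrays lie at the upper right.

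The choice of probe set changed calls of Gbp6 and Gbp2. The arrays held 12 probe sets with 1 symbol for the 8 genes, a second one each for Gbp2, Gbp6, Gbp7 and Iigp1. For Gbp2 the second gave changes of 5.19 in the thymus and 3.76 in the spleen, and with the probe sets averaged Gbp2 was also called in mature thymus against spleen (adjusted p = 0.0165) and in mature thymus against polyI:C-treated spleen (adjusted p = 0.0131). For Iigp1 it gave -0.95 and -1.63, and for Gbp7 0.58 and 0.49. For Gbp6 it gave a smaller splenic change (0.67 against 1.66) and a larger polyI:C difference from untreated mature cells (3.30 against 1.43). The 4 GBPs are close relatives, and probe sets of such genes can share signal, so their separate values are uncertain to that degree.

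Of 22 further genes of the same and related GTPase families that were looked up, 8 had a probe set with a single symbol, and all 8 of these were tested. In thymic maturation 2 rose (16.8% of all genes tested did), in splenic maturation 3 rose and 1 fell (12.3% and 24.1%), and with polyI:C against untreated mature cells 4 were higher (8.58%). None fell in the first and the last of these in limma, also at an unadjusted p under 0.05. In these comparisons 20.4% and 9.66% of all genes tested were called lower. Gbp2b (Gbp1), which lies between Gbp3 and Gbp2, averaged 3.96 in thymus CCR7- cells, 7.99 in thymus CCR7+ cells, 5.20 in spleen CCR7- cells, 6.56 in untreated spleen CCR7+ cells and 6.44 after polyI:C. Unlike the 8 members it was highest in the mature thymus, 1.55 above the polyI:C group (adjusted p = 0.00132). It rose by 4.04 in the thymus and 1.37 in the spleen, and the difference of 2.67 ± 0.40 passed the test (adjusted p = 0.00186).

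Gbp8 rose by 3.30 in the thymus and 2.72 in the spleen (adjusted p of 1.24e-06 and 1.47e-05) and differed by 0.06 between polyI:C-treated and untreated mature cells (adjusted p = 0.932). The IRG gene Ifi47 (Irgd) fell by 0.75 with splenic maturation (adjusted p = 0.0479) and was 3.80 higher with polyI:C than in untreated mature cells (adjusted p = 4.18e-07). Gm4951, another IRG-related gene, was 4.68 higher in that comparison (adjusted p = 8.47e-07). Mx1, an antiviral dynamin-like GTPase, was 2.40 higher (adjusted p = 0.00123).

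Genes upstream of the members were examined as a list of interferon receptors, kinases, STATs, IRFs and their inhibitors, of which 18 of 19 were tested. With thymic maturation 4 rose and 4 fell, with splenic maturation 5 rose and 5 fell, and with polyI:C against untreated mature cells 4 rose and 2 fell. Of all genes tested, 16.8% rose and 20.4% fell in the first, 12.3% and 24.1% in the second, and 8.58% and 9.66% in the third, so the list's counts in the thymus were near those of all genes. Irf1, whose product binds ISRE-type sequences, rose by 2.75 ± 0.30 in the thymus (adjusted p = 5.11e-06) and 1.86 ± 0.30 in the spleen (adjusted p = 0.000258), and differed by 0.32 between polyI:C-treated and untreated mature cells (adjusted p = 0.542). Irf7, which amplifies type I interferon production, had the same order of group means as Igtp and Irgm2. It averaged 10.61 in thymus CCR7- cells, 9.11 in thymus CCR7+ cells, 8.23 in spleen CCR7- cells, 6.75 in untreated spleen CCR7+ cells and 11.51 after polyI:C. Its polyI:C difference from untreated mature cells was 4.76.

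Stat2, a subunit of the complex that binds the ISRE, fell by 1.39 ± 0.26 in the thymus (adjusted p = 0.000699), differed by -0.10 in the spleen, and was 2.41 higher with polyI:C than in untreated mature cells (adjusted p = 2.57e-05). Ifngr1, a chain of the interferon gamma receptor, fell by 1.89 in the thymus and 1.88 in the spleen. Usp18, an inhibitor of type I interferon signalling, rose by 1.98 in the spleen and differed by -0.21 in the thymus, and the difference of -2.20 ± 0.24 passed the test (adjusted p = 0.000161).

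Of 7 interferons listed, 5 were tested, and 0 were called in thymic or splenic maturation in limma, also at an unadjusted p under 0.05. Of all genes tested, 16.8% rose and 20.4% fell in the thymus, and 12.3% rose and 24.1% fell in the spleen. In polyI:C-treated against untreated mature cells 3 of 5 were higher, against 8.58% of all genes tested. Ifnb1 averaged 4.76 to 4.87 in the untreated groups and 7.77 ± 1.03 (SD, n = 3) after polyI:C, a difference of 2.93 (adjusted p = 4.52e-05). Ifng averaged 4.50 in thymus CCR7+ cells and 3.57 to 4.17, below the filter value, in the other groups. It passed the test in none of the 8 comparisons. Its thymus CCR7+ arrays (4.369 to 4.665) were nevertheless all above its untreated spleen CCR7+ arrays (3.461 to 3.823). Between these groups 1 of the 5 interferons, Ifng, was higher in the thymus in limma at an unadjusted p under 0.05.

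With maturation in untreated mice, targets of interferon gamma outside the 2 families were called about as often as other genes. Of 10 tested of 12 listed, 3 rose and 2 fell in the thymus, where 16.8% and 20.4% of all genes tested did, and 1 rose and 2 fell in the spleen, where 12.3% and 24.1% did. Between the organs, larger shares of the list than of all genes were called lower in the thymus. In immature cells 0 were higher and 3 lower there in limma, against 4.92% and 3.24% of all genes tested. In untreated mature cells 2 were higher and 2 lower, against 8.71% and 3.47%. Against polyI:C-treated cells, 0 were higher (2 at an unadjusted p under 0.05) and 3 lower, against 16.7% and 7.40%. Cxcl9, a chemokine, fell by 4.20 in the thymus and 1.96 in the spleen, and the difference of -2.24 ± 0.27 passed the test (adjusted p = 0.000294). Ido1, a tryptophan-degrading enzyme, rose by 2.23 in the thymus and differed by -0.39 in the spleen, and the difference of 2.62 ± 0.44 passed the test (adjusted p = 0.00378). Cxcl10, also a chemokine, was 3.77 higher with polyI:C than in untreated mature cells. Ciita, the master regulator of MHC class II genes, fell by 2.46 in the thymus and 2.12 in the spleen.

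The other genes tested were ranked by Pearson's r, over the 15 arrays, with the mean of the 8 members. Genes with clone, locus or predicted-gene names were left out of this ranking. The highest were Tlcd3a (0.986), Cpeb3 (0.986), Il1rn (0.983), Krt222 (0.978), Ddx60 (0.976), Ifit3 (0.975), Cyth3 (0.969) and Apcdd1 (0.966). By ranks (Spearman) their correlations were lower, at 0.818 to 0.886. These are descriptions over 15 arrays in 5 groups, and 98 of 13621 other genes reached an r of 0.9. In polyI:C-treated against untreated mature cells, Ifit3, an interferon-induced antiviral gene, was 5.80 higher, Ddx60, a helicase gene, 4.90 and Il1rn, which encodes the interleukin 1 receptor antagonist, 4.89.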

How the data were processed

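Expression was measured on 15 Affymetrix whole-genome mouse arrays, 3 for each of 5 sorted cell groups. The deposited values are log2 expression values that the authors made with RMA in the affy package, per the submitters' processing notes; the sources used here do not give versions or say which arrays were normalised together. RMA gives no detection calls. Per the labels' protocols, 40 ng of RNA per array went through 2 rounds of cRNA amplification, which favours the 3′ ends of transcripts. Of 45101 probe sets, 34958 carried 1 gene symbol in GEO's platform annotation, 932 several and 9211 none listed. A gene was represented by its probe set of highest mean among those with 1 symbol. A gene was tested if 3 or more arrays exceeded 4.39, the 40th percentile of the whole table, which left 13629 of 18194 genes.

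Group means were fitted over all 15 arrays in limma 3.58.1 (R 4.3.3) with empirical Bayes moderation (10 residual and 4.01 prior degrees of freedom), and p-values were adjusted by Benjamini-Hochberg over all genes tested. The procedure was tested on simulated data. With 3 arrays a group an exact permutation test of a single gene cannot go below p = 0.1, and the number of arrays limits the precision. No reference genome was used here; promoter windows and gene order come from RefSeq tables (GRCm38.p6). The members and the gene lists were chosen with earlier results of these data known. Named genes are all 8 members and up to 4 called genes of a list in a comparison, by size of change. The 8 genes of highest r with the members' mean were also named, with clone, locus and predicted-gene names left out. Ifng was named in addition, after its values were seen. Alternatives were another filter or none, other choices of probe set, repeated quantile normalisation, median centring, a trended robust prior, only the groups compared, the replicate number as a block, and single arrays left out. The labels do not say what a replicate number shares. Deviations of same-numbered arrays from their group means correlated at 0.524 to 0.574 between immature thymus and spleen and at 0.42 to 0.59 between untreated mature thymus and spleen, against -0.553 to 0.015 for other numbers of those groups, and not over 0.1 for every number in the other 8 of 10 pairs of groups. A block of the number within stage, without the polyI:C arrays, was therefore added after seeing the data.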

Additional observations from a re-analysis of the deposited data

Results flagged for a closer look

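The change with maturation differed between thymus and spleen for 5 genes named in the report, by the contrast of the thymic minus the splenic change in limma on log2 values. The difference was positive for Gbp2b (2.67), Ido1 (2.62) and Gbp2 (1.38), and negative for Usp18 (-2.20) and Cxcl9 (-2.24). Gbp2 and Gbp2b are neighbours in the RefSeq gene order and close relatives whose probe sets can share signal. T cell markers were higher in the thymic CCR7+ arrays (7.24 to 8.25) than in the thymic CCR7- arrays (5.39 to 6.37), and their part in these differences was not tested. Groups of 3 arrays are too small to look for single outlying arrays.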

How the results depend on the processing

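Under 10 processing alternatives, 614 of 632 member changes kept their direction and their side of the threshold in limma, 4 lost the call, 14 gained it and 0 reversed; with single arrays left out, 937 of 960 did, 17 lost it, 6 gained it and 0 reversed. The number of members lower in thymic maturation was 2 in place of 1 with a 60th percentile filter, with quantile normalisation repeated, with a trended robust prior and with only the groups compared, Iigp1 being the added gene, and ran from 1 to 2 with single arrays left out. The number higher in mature thymus against spleen was 5 in place of 3 with probe sets averaged per gene, by Gbp2 (0.58) and Gbp6 (1.17). The number lower in immature thymus against spleen ran from 0 to 1 with single arrays left out. Irgm1 in mature thymus against spleen also lost its call with no filter (adjusted p = 0.0582), median centring (0.053) or only the groups compared (0.0853). With the replicate block over all groups, 4 members in place of 3 were higher in thymic maturation, by Gbp7 (adjusted p = 0.0428), and no other member count changed. With the replicate block within stage, added after seeing the data, the members higher were 1 in place of 0 in immature thymus against spleen, 5 in place of 3 in mature thymus against spleen, and 2 in place of 1 in the difference between organs; it ended no call. Gbp3 has no value with probe sets of the _a, _s and _x types left out. For dim genes such as Gbp6, values near the filter limit what a difference can show.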

Other observations

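Genes that act with the members were followed as further lists. Of 8 inflammasome genes, through which GBPs act, 2 rose and 3 fell with thymic maturation, and 2 rose and 4 fell with splenic maturation. Of all genes tested, 16.8% rose and 20.4% fell in the thymus, and 12.3% rose and 24.1% fell in the spleen. Casp4, the caspase-11 gene that senses bacterial lipopolysaccharide, rose by 1.29 ± 0.29 in the thymus (adjusted p = 0.00242) and 1.79 ± 0.29 in the spleen (adjusted p = 0.000257), and was 1.45 higher with polyI:C than in untreated mature cells (adjusted p = 0.00283). Casp1 rose by 1.33 in the thymus and 0.83 in the spleen. The cytokine genes that these caspases serve fell in both organs, Il18 by 3.24 and 1.83 and Il1b by 1.35 and 1.30.

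Of 10 genes of the ATG8 conjugation system, which loads IRGs and GBPs onto vacuoles, 4 rose and 2 fell with thymic maturation, and 1 rose and 1 fell with splenic maturation. The shares of all genes tested were 16.8% rising and 20.4% falling in the thymus, and 12.3% and 24.1% in the spleen. The list's counts of falling genes in the thymus and rising genes in the spleen were near these shares. Gabarapl1, an ATG8 protein gene, rose by 1.97 ± 0.33 in the thymus (adjusted p = 0.000232) and 1.26 ± 0.33 in the spleen (adjusted p = 0.00738). Atg3, the conjugating enzyme gene, fell by 1.07 and 0.69. Neither comparison of untreated thymus with untreated spleen gave a call for this list in limma (0 of 10). At an unadjusted p under 0.05 there were 0 genes in immature cells and 4 in mature cells, 2 in each direction. Of all genes tested, 4.92% were called higher and 3.24% lower in the thymus in immature cells, and 8.71% and 3.47% in mature cells.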
